A study of Mus musculus with 14 samples.

Results

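The kinesin family of mouse was followed across 4 subsets of splenic B cells. Its members were all genes whose annotated symbol starts with Kif and a digit, with Kifc1, Kifc2 and Kifc3. This gave 40 of the 18193 genes on the array, each read from its probe set with the highest mean log2 intensity of 103 such probe sets. Of the 40 genes, 12 were listed as mitotic motors, 15 as transport motors, 4 as lying between these classes (Kif2a, Kif2b, Kif21a and Kif21b) and 9 as others.

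RNA of sorted spleen cells from male C57Bl/Ka mice was hybridised to 14 arrays. Plasma cells (4 arrays) were NP-binding, syndecan-1-positive, B220-low and PNA-negative, and came 7 days after immunization with NP-CGG, a protein carrying the NP hapten, given in alum, from mice aged 5 to 9 weeks. Memory cells (4 arrays) were NP-binding, B220-positive, CD38-high cells without IgM, IgD or PNA, taken 10 to 12 weeks after the same immunization from mice aged 14 to 18 weeks. Germinal center cells (3 arrays) were NP-binding, B220-positive, PNA-positive and CD38-low, taken at day 14 from mice aged 6 to 10 weeks. Naive cells (3 arrays) were B220-, CD23- and IgD-positive with low IgM, from mice aged 4 to 8 weeks whose labels name no immunogen. The gates of plasma, memory and naive cells also asked for Ig-lambda, and that of germinal center cells for low Ig-lambda. The immunized mice received 100 µg of antigen into the peritoneum, except that plasma replicate 1 has no dose in its label. The labels of naive cells give no dose either. All sorts removed cells bearing CD11b, Ter119, Gr-1, CD3, CD4, CD5 or CD8. Age and time after immunization differ between the subsets and cannot be told apart from them. The labels do not say whether replicates came from separate animals or pools, so a p-value here measures the spread among these arrays, and that spread may be technical.

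Kinesins are motor proteins that use ATP to walk along microtubules or to take their ends apart. Mitotic kinesins build the spindle, move chromosomes and complete cell division, and their transcripts are made mainly in cycling cells, while transport kinesins carry vesicles, endosomes, mitochondria and RNA through the cytoplasm of resting and dividing cells alike. Germinal center B cells are known for fast division, early antibody-secreting cells can still divide, and naive and memory B cells are mostly at rest.

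Intensities are on the deposited linear scale, and background on each array was set at its brightest bacterial control without a spike (27 probe sets), which gave 11.0 to 16.1 by array. Between 52.7% and 66.9% of the genes lay above it, and precision is limited by the number of arrays in each subset. The 5 plasma markers summed to 26614 to 36356 in plasma cells and to at most 5359 elsewhere, and all 4 measured germinal center markers were above background on every germinal center array. Markers of other subsets went both ways in germinal center cells. The plasma marker Jchain averaged 1690 in germinal center cells, against 10.4 in naive cells. The plasma markers Sdc1 (at least 10.1-fold) and Irf4 (log2 -3.46 ± 0.33) were lower in germinal center than in naive cells. The memory marker Nt5e was at least 7.78-fold higher in germinal center than in naive cells. The part of other subsets in the kinesin values was not tested. The B cell marker sum was 1952 to 3769 in plasma cells, 12515 to 15055 in memory cells, 6686 to 9080 in germinal center cells and 13581 to 15184 in naive cells. Myeloid markers summed to 102 to 243 in plasma cells and 110.1 to 135 in naive cells, T cell markers to 91.3 to 97.7 in plasma cells and 69.6 to 76.2 in naive cells, and both measured erythroid markers were at background on all arrays. The 3' to middle signal ratio of the beta-actin probe sets, which rises with RNA degradation or short amplification products, was 5.47 to 6.91 in plasma cells, 4.15 to 5.33 in memory cells, 6.11 to 17.6 in germinal center cells and 4.39 to 5.30 in naive cells.

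Of the 40 kinesins, 13 were above background on all 14 arrays, 2 (Kif2b and Kif28) on none, and 23 on every array of at least 1 subset. The last count covers 10 of the 12 mitotic, 10 of the 15 transport, 2 of the 4 between the classes and 1 of the 9 other genes. Across the 6 contrasts 26 genes passed limma at an adjusted p under 0.05 in at least 1, namely 10 mitotic, 11 transport, 2 between the classes and 3 others, and 14 passed in none. Of all 18193 genes, 48.2% passed in at least 1 contrast. The map of all 40 genes on all arrays shows where the bright members lie.

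**Figure D1:**
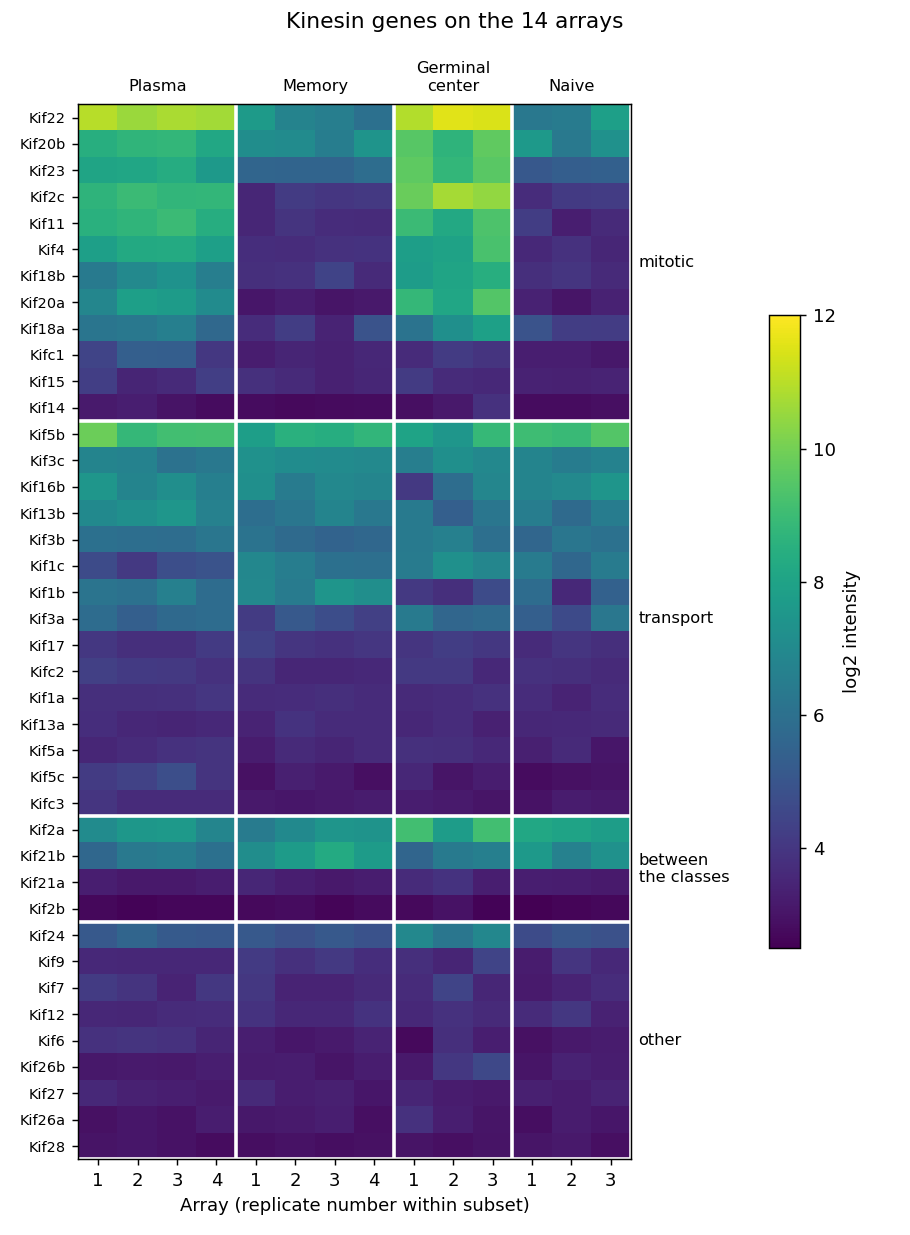
Log2 intensity (colour scale) of the 40 kinesin genes (rows, grouped into mitotic, transport, between the classes and other) on the 14 arrays (columns, by subset and replicate number). The bright block of mitotic genes lies in the plasma and germinal center columns, and Kif5b heads the transport block, where classes are sorted by mean log2 intensity.

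Most mitotic kinesins were higher in germinal center and plasma cells than in naive cells. Against naive cells, 9 of 12 were higher in germinal center cells and 0 were lower, while 8.37% of all 18193 genes were higher and 11.1% lower (19.5% in either direction). Against naive cells, 10 of 12 were higher in plasma cells and 0 lower, where 14.2% of all genes were higher and 16.1% lower (30.3% in either direction). The median log2 fold change of the 12 genes was 4.16 in germinal center cells and 2.88 in plasma cells, beside 0.06 and 0.06 over all genes, and stayed at 4.16 and 2.88 with genes below background taken at their bounds. All 9 genes higher in germinal center cells were also higher in plasma cells, with Kifc1 added. Both contrasts use the same naive arrays. In sorted bulk RNA, fewer cells of a type and less RNA per cell cannot be told apart.

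None of the 12 mitotic kinesins passed limma in memory against naive cells (0 higher and 0 lower at an adjusted p under 0.05, and 0 at an unadjusted p under 0.05), where 5.57% of all genes passed in either direction. Their median log2 fold change was -0.03, beside -0.03 over all genes. For Kif2c the log2 fold change in memory against naive cells was -0.07 (95% interval -0.52 to 0.37), and for Kif11 -0.01 (-0.56 to 0.53). Both genes lay near background in both subsets, so these intervals do not bound a difference hidden by background. Of the 12 genes, 5 were above background on every memory array and 4 on every naive array. The 3 above background on all arrays gave log2 -0.12 (Kif22), -0.04 (Kif20b) and 0.36 (Kif23). In memory against germinal center cells 9 of 12 were lower and 0 higher (11.5% lower and 11.0% higher among all genes, 22.4% in either direction), with a median of -3.92. In plasma against memory cells 10 of 12 were higher and 0 lower (17.2% higher and 16% lower among all genes, 33.2% in either direction), with a median of 2.64.

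**Figure D2:**
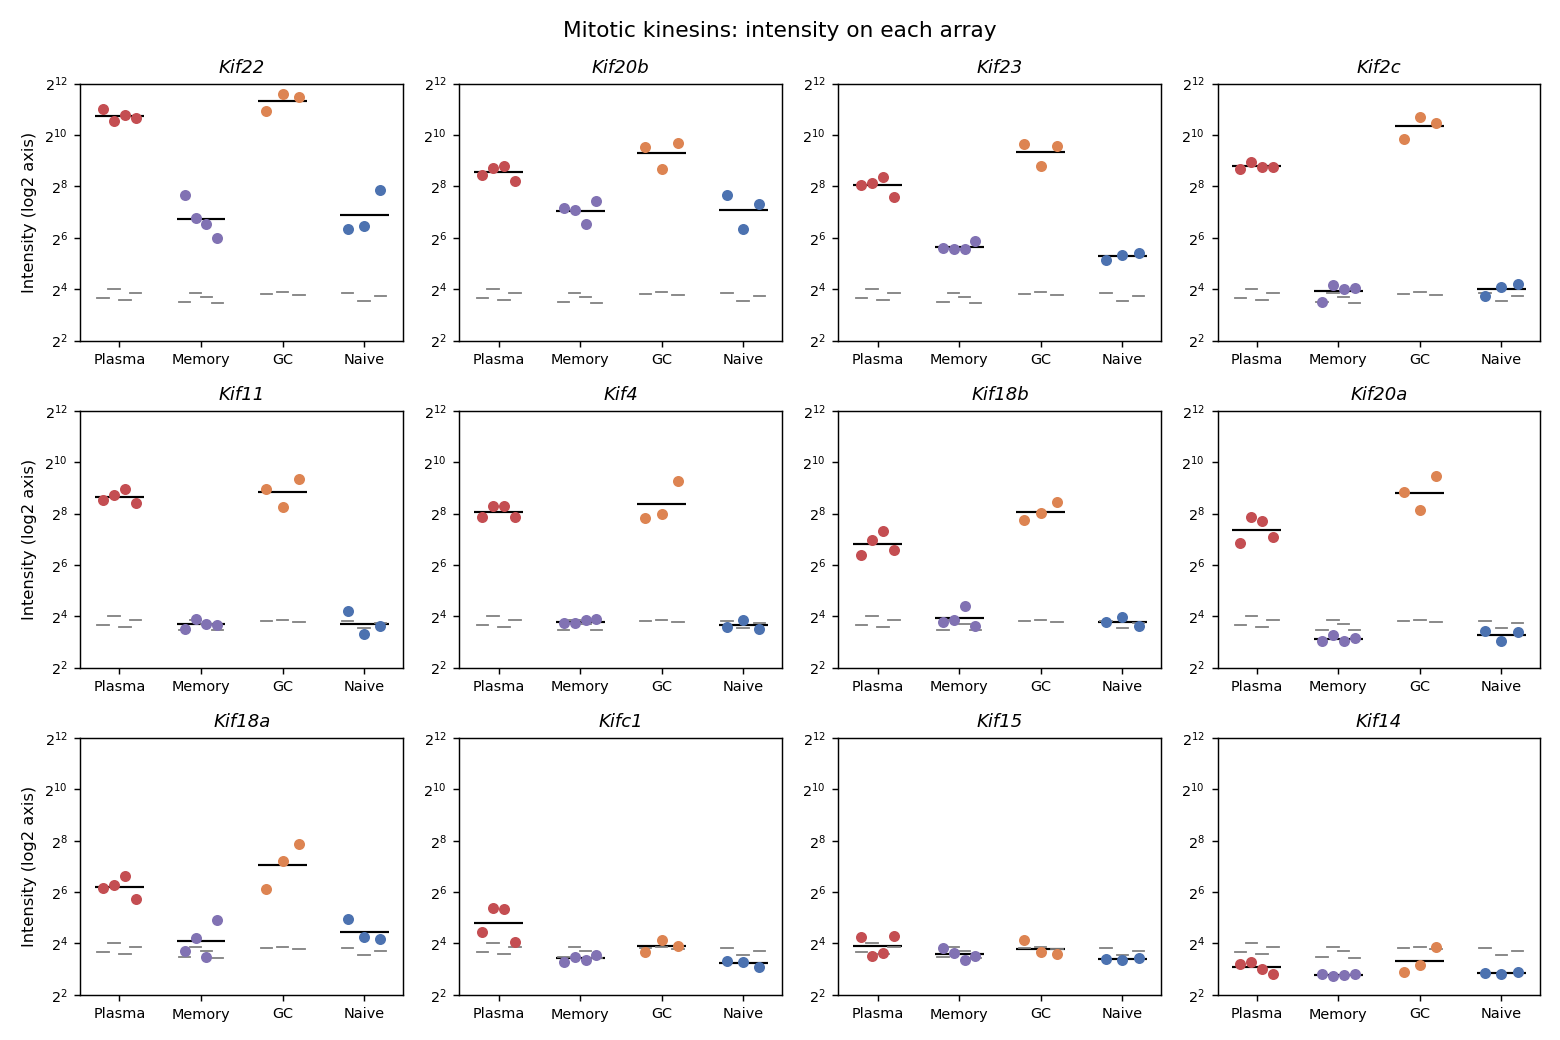
Intensity (log2 axis) of the 12 mitotic kinesins on each array: one point per array, black lines for subset means of the log2 values, and short grey lines for the background of each array. For Kif2c the plasma and germinal center points (408 to 499 and 919 to 1668) lie far above the memory and naive points (11.4 to 17.8 and 13.2 to 18.2), while Kif14 stays near or below the grey lines in all 4 subsets.

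The start regions of these genes share short sequence motifs. Of genes higher in germinal center than in naive cells, 6 windows are printed because most of their matches lie close to the start. Being chosen by position, these windows do not show where matches lie in general. Windows from 250 bases before to 50 bases after the annotated start came from a prepared set of RefSeq starts (GRCm38.p6). This set held windows for 32 of the 40 members (36 windows). The windows were searched on both strands for the cell cycle homology region TTTGAA and its variant TTCGAA, known as the element bound by the MuvB complexes of cell cycle genes. They were also searched for the NF-Y box CCAAT and for the E2F sites TTTCGCGC or TTTGGCGC. The printed windows are Kif11 at chr19:37376132-37376431 on the plus strand, Kif23 at chr9:61946750-61947049 on the minus strand, Kif18b at chr11:102925075-102925374 on the minus strand, Kif4 at chrX:100625815-100626114 on the plus strand, Kif20b at chr19:34922108-34922407 on the plus strand and Kif24 at chr4:41464799-41465098 on the minus strand. Each is written 5′ to 3′ along the gene, and capitals mark the matches, of which none shares a base with a match to another motif. On the opposite strand the motifs read TTCAAA and ATTGG.
Kif11: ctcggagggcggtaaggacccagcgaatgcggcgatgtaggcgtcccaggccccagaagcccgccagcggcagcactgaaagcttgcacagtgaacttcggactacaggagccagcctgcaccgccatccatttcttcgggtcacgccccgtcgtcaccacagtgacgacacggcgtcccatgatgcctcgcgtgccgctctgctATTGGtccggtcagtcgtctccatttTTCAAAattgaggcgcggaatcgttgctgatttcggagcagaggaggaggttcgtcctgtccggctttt
Kif23: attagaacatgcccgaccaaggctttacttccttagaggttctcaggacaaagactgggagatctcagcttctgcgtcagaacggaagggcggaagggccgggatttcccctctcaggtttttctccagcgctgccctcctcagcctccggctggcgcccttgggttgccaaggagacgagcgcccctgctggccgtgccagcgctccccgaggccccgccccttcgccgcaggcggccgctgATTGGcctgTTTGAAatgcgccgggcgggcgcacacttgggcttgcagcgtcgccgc
Kif18b: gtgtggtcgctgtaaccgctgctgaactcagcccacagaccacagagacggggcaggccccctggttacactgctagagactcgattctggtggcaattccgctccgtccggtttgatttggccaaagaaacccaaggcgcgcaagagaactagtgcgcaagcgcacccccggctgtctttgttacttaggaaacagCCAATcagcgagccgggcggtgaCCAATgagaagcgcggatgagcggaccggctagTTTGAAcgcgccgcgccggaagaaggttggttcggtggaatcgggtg
Kif4: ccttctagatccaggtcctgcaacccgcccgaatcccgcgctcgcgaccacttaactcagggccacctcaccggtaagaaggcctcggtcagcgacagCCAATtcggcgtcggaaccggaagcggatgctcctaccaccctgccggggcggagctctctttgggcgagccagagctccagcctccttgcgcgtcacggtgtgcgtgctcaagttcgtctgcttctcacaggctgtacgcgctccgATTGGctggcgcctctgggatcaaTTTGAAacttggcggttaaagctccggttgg
Kif20b: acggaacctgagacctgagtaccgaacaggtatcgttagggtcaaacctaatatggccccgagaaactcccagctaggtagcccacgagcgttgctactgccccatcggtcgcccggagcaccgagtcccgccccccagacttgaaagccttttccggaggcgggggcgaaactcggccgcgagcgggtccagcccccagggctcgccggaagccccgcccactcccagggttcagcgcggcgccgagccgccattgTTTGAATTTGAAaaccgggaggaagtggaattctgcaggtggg
Kif24: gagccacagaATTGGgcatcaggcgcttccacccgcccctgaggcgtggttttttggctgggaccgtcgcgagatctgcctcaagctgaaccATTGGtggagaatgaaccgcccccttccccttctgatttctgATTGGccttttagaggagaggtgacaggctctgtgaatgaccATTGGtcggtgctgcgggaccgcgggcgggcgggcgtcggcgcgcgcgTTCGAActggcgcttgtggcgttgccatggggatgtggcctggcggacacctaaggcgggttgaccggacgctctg

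TTTGAA stood in 10 of the 11 mitotic windows, in 1 of 12 transport windows, in 0 of 4 windows between the classes and in 2 of 9 others, against 17.9% of all 32851 windows. In 8 mitotic genes a match lay at most 30 bases from the start, beginning at base -19 in Kif11, base 3 in Kif23, base 4 in Kif18b and base 20 in Kif4. The share of all windows with a match that close was not counted. The 8 genes include Kif15, which passed in none of the contrasts. Kif20b held 2 matches side by side at bases 8 and 14. Matches also lay farther off: the only ones of Kif2c and Kif14 began at bases -103 and -228. Kif22 and Kif15 each held a second one, at bases -215 and -234. CCAAT was found in 7 of 11 mitotic and 4 of 12 transport windows (37.4% of all), and either cell cycle element together with CCAAT in 7 of 11 mitotic and 0 of 12 transport windows (7.52% of all). The 1 mitotic window without TTTGAA was that of Kif18a, which held an E2F site at base -10; such a site stood in 2 of 11 mitotic windows and 0.813% of all. Kif24, outside the mitotic list, held TTCGAA at base -26, a motif in 1.56% of all windows, and CCAAT 4 times. A match describes these letters and is not a measured binding site.

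**Figure D3:**
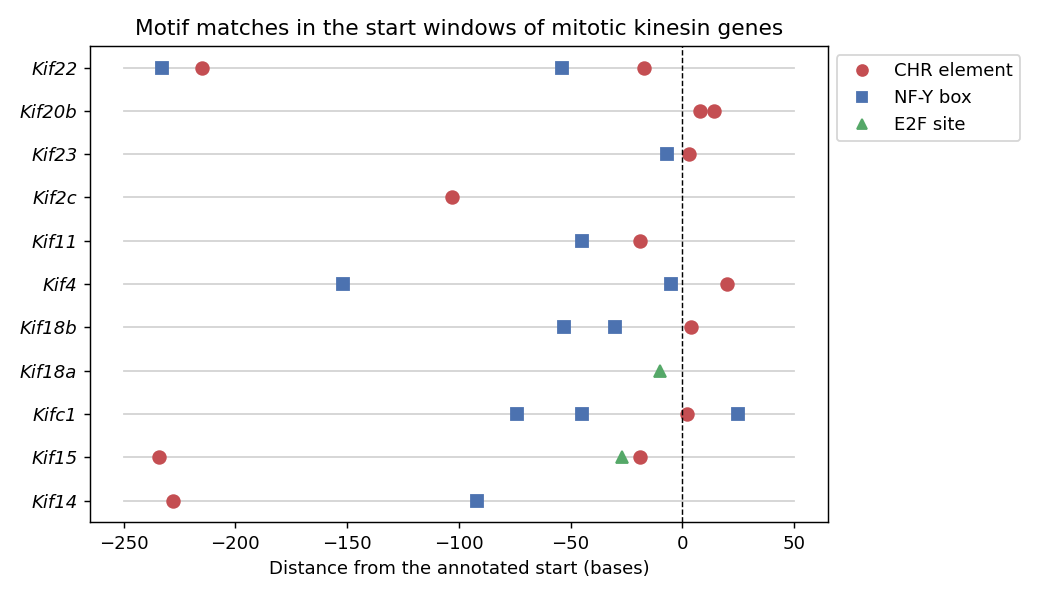
Distance in bases from the annotated start (horizontal axis) of matches to the CHR element, the NF-Y box and the E2F site in the 300-base windows of the 11 mitotic kinesin genes with a window (rows). A CHR match stands in 10 of the 11 rows, and in 8 of them at most 30 bases from the start.

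Among the motors that build the spindle, Kif11 pushes the poles apart. It had intensities of 369, 425, 502 and 341 in plasma cells, 11.4, 15.1, 13.1 and 12.8 in memory cells, 500.1, 303 and 657 in germinal center cells and 18.6, 9.93 and 12.3 in naive cells. All plasma and germinal center arrays lay above every memory and naive array, and only 1 of 3 naive arrays was above background. The log2 fold change was 5.14 ± 0.27 (SE) in germinal center and 4.95 ± 0.25 in plasma against naive cells (limma adjusted p = 1.04e-08 and 2.47e-09). Plasma and germinal center arrays overlapped, with a log2 difference of -0.20 (95% interval -0.74 to 0.35). Kifc1, the minus-end motor that focuses spindle poles, was the 1 mitotic motor that passed as higher in plasma than in germinal center cells. Its only probe set is of a kind whose probes may match further transcripts. Kifc1 read 21.6, 41.7, 40.8 and 16.6 in plasma cells, 9.59, 11.2, 10.4 and 11.8 in memory cells, 12.8, 17.6 and 15.1 in germinal center cells and 9.94, 9.83 and 8.54 in naive cells. None of the naive arrays was above background, so plasma cells were at least 2.15-fold higher than naive cells (limma adjusted p = 3.91e-04). This call ended with a floor of 16 on the intensities. In germinal center cells 2 of 3 arrays were above background, and the difference from naive cells did not pass (log2 0.68 ± 0.29, limma adjusted p = 0.123). The lead of plasma over germinal center cells, log2 0.89 ± 0.27 (limma adjusted p = 0.0252), passed. The call was lost in 7 of 24 alternatives, among them leaving out plasma replicates 2 and 3 and germinal center replicates 1 and 3 (log2 0.70 to 0.90 and limma adjusted p = 0.0593 to 0.0943 without one). Kif15, which can keep the spindle bipolar, stayed between 10.4 and 19.4 on all arrays and passed in none of the contrasts.

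Among the motors that act on chromosomes and microtubule ends, Kif2c takes microtubules apart at centromeres. It read 408, 499, 428 and 438 in plasma cells, 11.4, 17.8, 15.9 and 16.7 in memory cells, 919, 1668 and 1422 in germinal center cells and 13.2, 17.1 and 18.2 in naive cells. Every germinal center array exceeded every plasma array, and both exceeded all memory and naive arrays, of which the naive ones were above background on 2 of 3. Its log2 fold change was 6.34 ± 0.22 in germinal center and 4.79 ± 0.21 in plasma against naive cells, and -1.55 ± 0.21 in plasma against germinal center cells (limma adjusted p = 3.16e-10, 4.57e-10 and 4.91e-05). Kif22 is a chromosome arm motor. It read 2041, 1509, 1777 and 1626 in plasma cells, 204, 108, 93.7 and 64.4 in memory cells, 1939, 3066 and 2856 in germinal center cells and 80.0, 86.9 and 230.4 in naive cells. Its plasma and germinal center arrays overlapped and both lay above the rest, with log2 fold changes of 4.46 ± 0.41 in germinal center and 3.88 ± 0.38 in plasma against naive cells (limma adjusted p = 2.09e-06 and 1.92e-06). Kif4 is a motor of chromosome arms and the central spindle. It read 231, 312, 316 and 232 in plasma cells, 13.3, 13.2, 14.4 and 14.7 in memory cells, 228, 254 and 620.3 in germinal center cells and 12.0, 14.6 and 11.4 in naive cells. Germinal center replicate 3 was the highest, the other germinal center arrays lay within the plasma range or just below it, and memory and naive cells sat at background (1 of 3 naive and 3 of 4 memory arrays above it). Its log2 fold changes were 4.71 ± 0.29 in germinal center and 4.42 ± 0.27 in plasma against naive cells (limma adjusted p = 4.19e-08 and 1.56e-08).

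Kif18b shortens astral microtubules. Its intensities were 84.1, 125, 161 and 94.6 in plasma cells, 13.7, 14.6, 21.1 and 12.3 in memory cells, 216, 263 and 347 in germinal center cells and 13.9, 15.8 and 12.3 in naive cells. The germinal center arrays all lay above the plasma arrays, which lay above the remaining arrays, with log2 fold changes of 4.28 ± 0.26 in germinal center and 3.02 ± 0.24 in plasma against naive cells (limma adjusted p = 3.53e-08 and 2.35e-07). Only 1 of the naive arrays was above background for Kif18b. Kif18a damps chromosome movement at metaphase. Its intensities were 72.2, 78.5, 98.3 and 52.6 in plasma cells, 12.9, 18.8, 11.0 and 30.5 in memory cells, 69.0, 149.7 and 237 in germinal center cells and 30.7, 18.9 and 18.1 in naive cells. Germinal center replicate 1 fell within the plasma range, and the log2 fold change was 2.62 ± 0.43 in germinal center and 1.75 ± 0.40 in plasma against naive cells (limma adjusted p = 5.20e-04 in germinal center and 0.00399 in plasma cells).

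Kif23, a motor of the spindle midzone and of cytokinesis, is the motor subunit of centralspindlin. It read 264, 280.0, 334 and 193 in plasma cells, 48.5, 47.4, 47.7 and 59.0 in memory cells, 806, 438 and 766 in germinal center cells and 35.0, 40.7 and 42.5 in naive cells. The 3 germinal center arrays were above all plasma arrays, and the naive arrays were the lowest. Its log2 fold changes were 4.04 ± 0.23 in germinal center and 2.74 ± 0.22 in plasma against naive cells, and -1.30 ± 0.22 in plasma against germinal center cells (limma adjusted p = 2.01e-08, 2.03e-07 and 3.74e-04). With the median of all 3 probe sets of Kif23 in place of the brightest, all 5 of its calls ended. The log2 fold change was then 0.14 in germinal center and -0.03 in plasma against naive cells, -0.17 in plasma and -0.07 in memory against germinal center cells, and -0.10 in plasma against memory cells. Kif20a brings the chromosomal passenger complex to the midzone. Its intensities were 115, 231, 209.7 and 137 in plasma cells, 8.33, 9.60, 8.26 and 8.89 in memory cells, 456, 279 and 710.0 in germinal center cells and 10.7, 8.30 and 10.5 in naive cells. It was below background on every memory and naive array, so it was at least 34.6-fold higher in germinal center and at least 12.8-fold higher in plasma than in naive cells (limma adjusted p = 1.41e-08 and 6.00e-08). Kif20b, a midzone motor, was above background on all arrays and read 352, 425, 448 and 297 in plasma cells, 145, 136, 92.1 and 171 in memory cells, 732, 405 and 829.5 in germinal center cells and 201, 80.6 and 158 in naive cells. The plasma arrays reached into the germinal center range, and naive and memory cells overlapped. The log2 fold changes were the smallest of the 9 genes higher in both subsets, 2.20 ± 0.34 in germinal center and 1.46 ± 0.32 in plasma against naive cells (limma adjusted p = 3.00e-04 and 0.00256). The plasma call ended with the median of all probe sets. Kif14, which works with citron kinase at the midbody, lay between 6.68 and 14.5 and was above background on 1 of 14 arrays, germinal center replicate 3, and it passed in none of the contrasts.

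Plasma cells had the lower level of 4 mitotic kinesins when set against germinal center cells: Kif2c, Kif20a (-1.43 ± 0.28), Kif23 and Kif18b (-1.27 ± 0.24). With Kifc1 higher, this made 5 of 12 genes, while 11.2% of all genes were higher and 12.6% lower (23.8% in either direction). The median log2 fold change was -0.66, beside -0.02 over all genes. Kif22 (-0.57, 95% interval -1.39 to 0.24) and Kif4 (-0.29, -0.87 to 0.29) did not pass. Kif18a (-0.87, 95% interval -1.74 to -0.0032) and Kif20b (-0.74, -1.42 to -0.05) had intervals below 0 before adjustment and did not pass either (limma adjusted p = 0.151 and 0.120). By subset mean, 10 of the 12 mitotic genes were highest in germinal center and 2 in plasma cells.

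The actin ratio of the germinal center arrays was 10.1, 17.6 and 6.11 on replicates 1, 2 and 3. Of the 9 mitotic genes higher in germinal center cells, 5 were lowest on replicate 1, 4 on replicate 2 and 0 on replicate 3, and 6 were highest on replicate 3. With the actin ratio as a covariate, 9 mitotic genes still passed in germinal center against naive cells. The part of RNA quality in the differences among the germinal center arrays was not tested.

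Second probe sets bear on the same transcripts. The 9 genes had 13 further probe sets, of which 6 were above background on all germinal center arrays. These 6 gave log2 differences of 0.44 to 4.16 in germinal center against naive cells. Choosing them by their germinal center level favours such a direction, so it is no separate support. The rest of the 13 gave log2 0.09 to 0.78. For Kif22 the others gave log2 differences of 4.16 and 1.99, and for Kif11 3.51 and 0.97. The other 2 probe sets of Kif23 were below background on every array, as was the other one of Kif18a, so these genes rest on 1 probe set. Kif4, Kif18b and Kif20a have only 1 probe set each. The probe sets used for Kif2c and Kif22 are of the kind whose probes may match further transcripts, and the 3 other probe sets of Kif2c gave log2 differences of 0.44, 1.43 and 0.69 in germinal center against naive cells. With the median of all its probe sets the Kif2c log2 fold change was 0.93 in germinal center and 0.51 in plasma against naive cells, and both calls held.

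**Figure D4:**
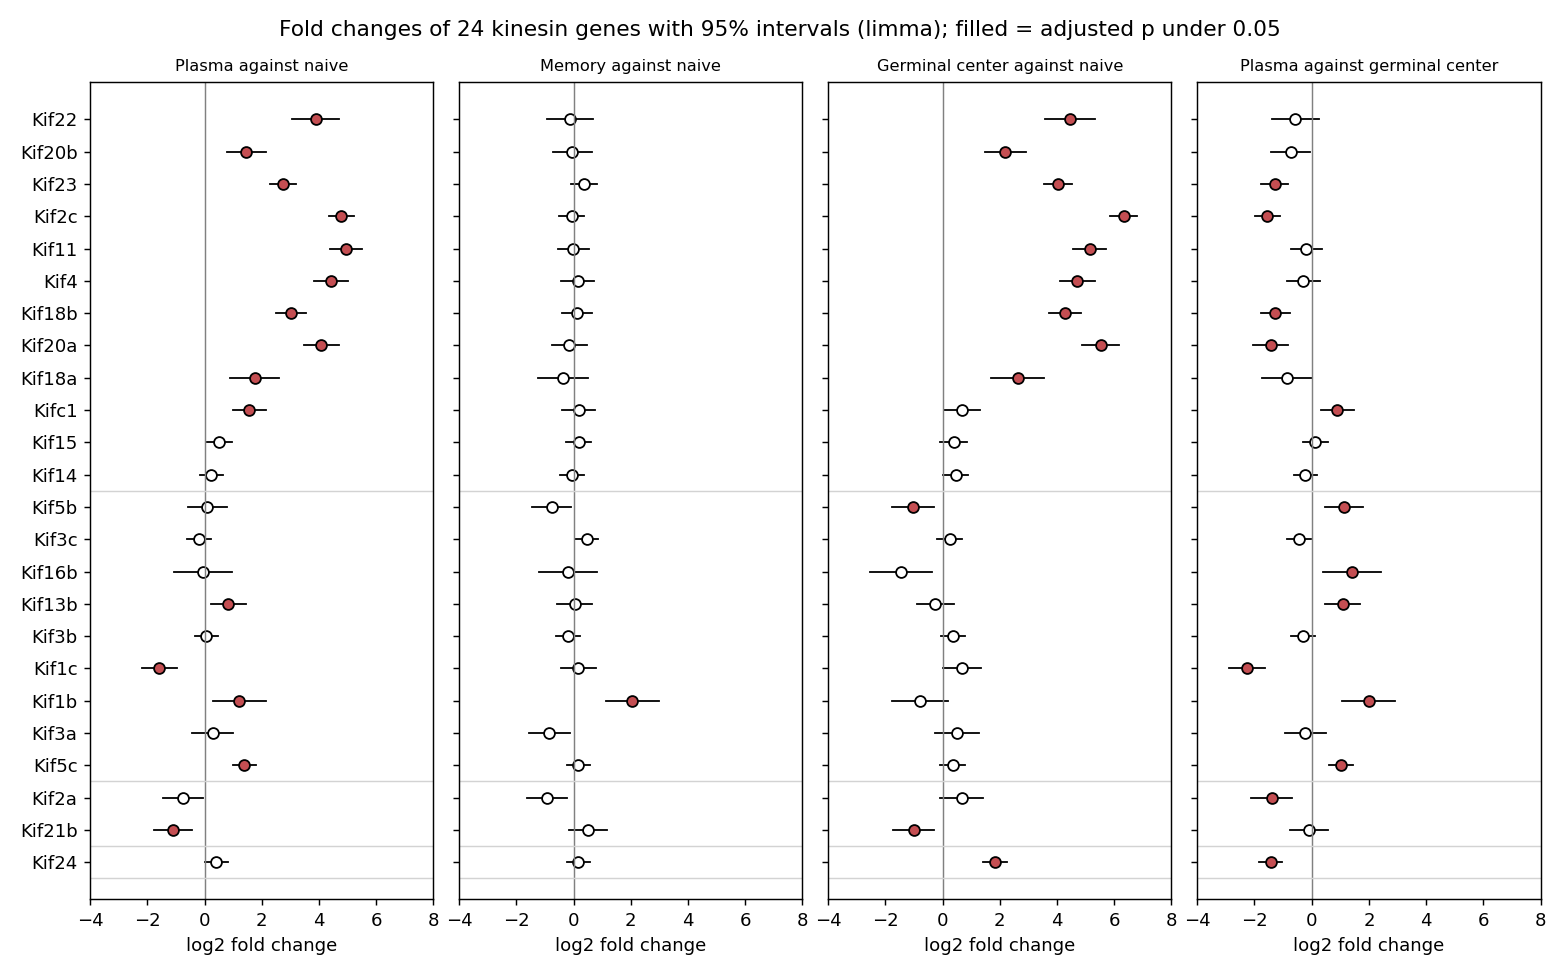
Log2 fold change (horizontal axis) of the 24 singly described kinesins in 4 contrasts, with 95% intervals from limma as bars; filled circles mark an adjusted p under 0.05 and open circles the rest. Filled circles of mitotic genes (top block) reach 6.34 in the contrast of germinal center with naive cells, and no mitotic circle is filled in the contrast of memory with naive cells. Values against a subset that is below background on all its arrays are fitted values and not bounds.

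Most partners of the mitotic motors were also higher in both subsets. Of 18 spindle and midzone partners, 16 were higher and 0 lower in germinal center against naive cells (median log2 4.19, beside 8.37% higher and 11.1% lower among all genes), and 16 were higher and 1 lower in plasma against naive cells (median 3.85, beside 14.2% and 16.1%). In germinal center cells Spag5 (astrin), below background on all naive arrays, was at least 51.9-fold higher, and the log2 fold change was 5.92 ± 0.30 for Cenpe, a kinetochore kinesin with a symbol outside the family rule. It was 5.51 ± 0.34 for Cdca8, a subunit of the chromosomal passenger complex, and 5.51 ± 0.22 for the spindle protein Nusap1. In plasma against naive cells the spindle protein Hmmr reached a log2 fold change of 5.91 ± 0.45 and Racgap1, the partner of Kif23 in centralspindlin, 5.02 ± 0.25. Numa1, which anchors microtubules at the poles, was the 1 partner that fell in plasma against naive cells (log2 fold change -1.42 ± 0.28). In memory against naive cells 1 of 18 partners, Racgap1, was higher (log2 0.98 ± 0.25) and 0 were lower, beside 2.31% higher and 3.26% lower among all genes. All 7 measured proliferation markers were higher in both germinal center and plasma cells than in naive cells, led by Mki67 with log2 fold changes of 8.88 ± 0.36 in germinal center and 8.64 ± 0.34 in plasma cells. In memory against naive cells 1 of the 7 was higher and 1 lower, Mki67 at log2 3.97 ± 0.34 and the replication factor Mcm5 at -1.60 ± 0.20. The summed intensity of the markers was 14657 to 16883 in plasma cells, 1297 to 1607 in memory cells, 14501 to 23267 in germinal center cells and 2066 to 2425 in naive cells. The part of the share of cycling cells in the kinesin values was not tested.

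Among the 15 transport kinesins, 0 were higher and 1 was lower in germinal center against naive cells. In plasma against naive cells 4 were higher and 1 lower, and 1 was higher and 0 lower in memory against naive cells. Among all genes 8.37% were higher and 11.1% lower in the first of these contrasts, 14.2% and 16.1% in the second, and 2.31% and 3.26% in the third. The transport kinesins had median log2 fold changes of 0.16, 0.23 and 0.08, beside 0.06, 0.06 and -0.03 over all genes. The gene lower in germinal center cells was Kif5b, those higher in plasma cells were Kif1b, Kif5c, Kif13b and Kifc3, the one lower there was Kif1c, and the one higher in memory cells was Kif1b. In plasma against germinal center cells 6 were higher (the same 4, Kif5b and Kif16b) and 1 lower (Kif1c), beside 11.2% higher and 12.6% lower among all genes. In memory against germinal center cells 1 was higher (Kif1b) and 2 lower (Kif3a and Kif3b), beside 11.0% and 11.5%. In plasma against memory cells 6 were higher (Kif3a, Kif5b, Kif5c, Kif13b, Kifc2 and Kifc3) and 2 lower (Kif1c and Kif3c), beside 17.2% and 16%. The calls of Kif5b (log2 0.86) and Kif13b (log2 0.79) in this last contrast were each lost in 9 of 24 alternatives, 6 of them leaving out 1 array. Under the alternatives tried the number passing in germinal center against naive cells ranged from 0 to 2, and in plasma against naive cells from 1 to 8. The classes are set side by side by counts, and the difference between them was not tested.

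**Figure D5:**
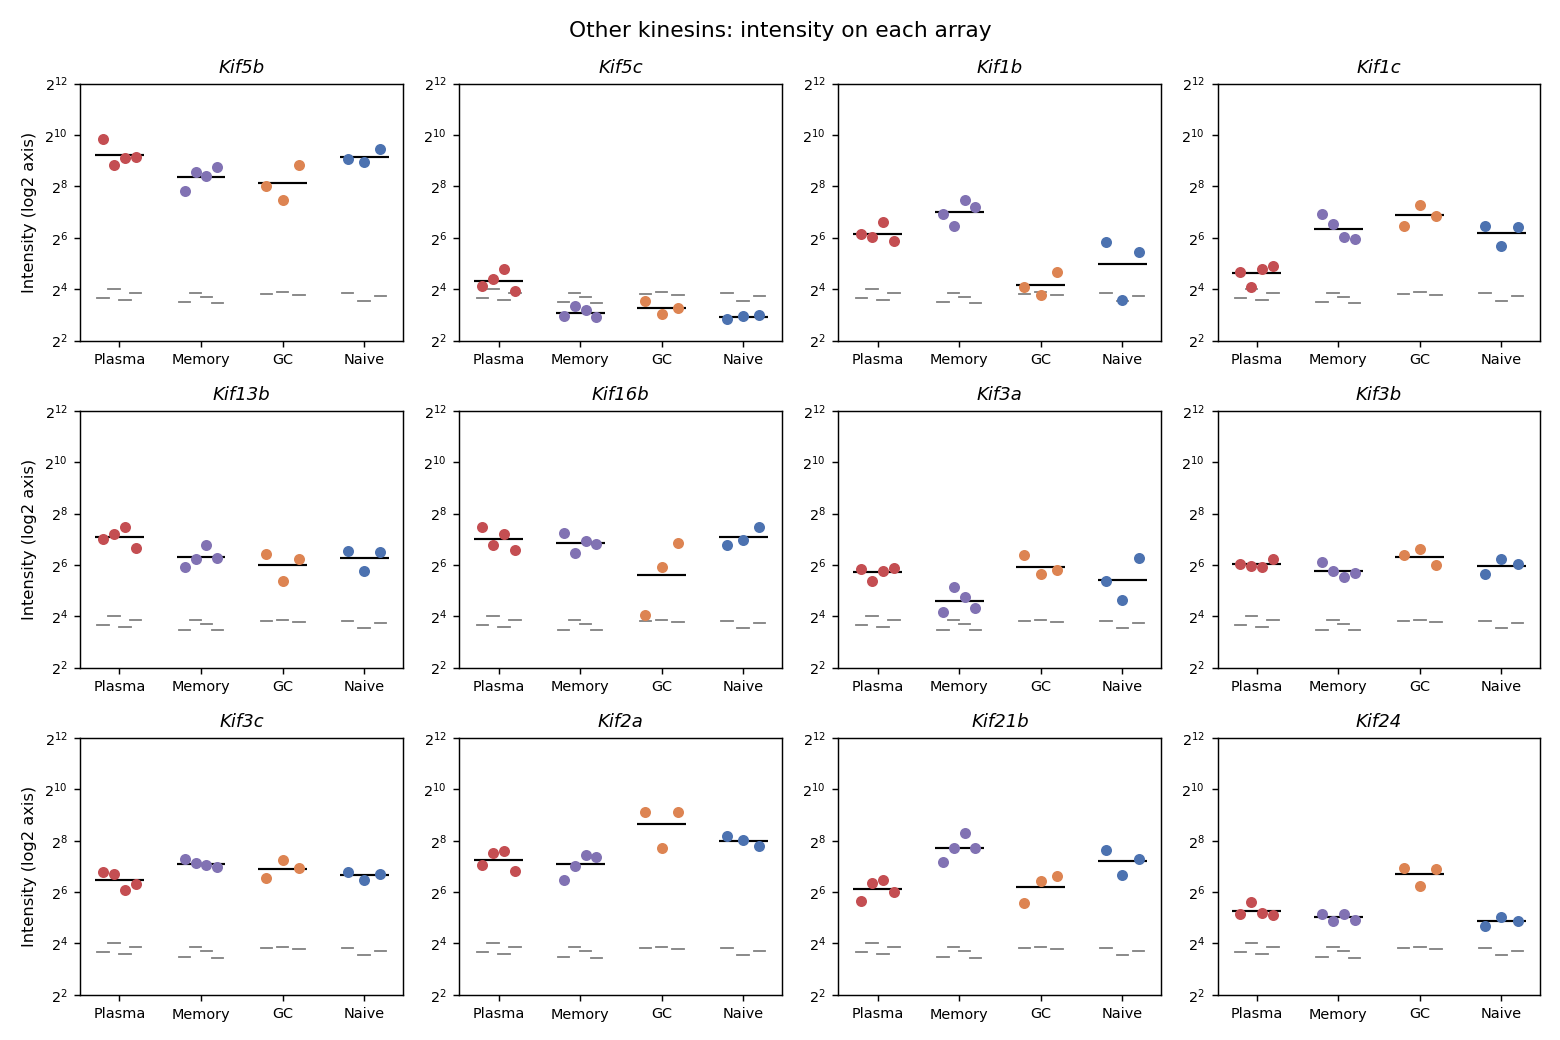
Intensity (log2 axis) of 12 other kinesins on each array, drawn with the same points, black subset means and grey background lines. Kif1b reaches 87.6 to 176 in memory cells and 13.6 to 25.4 in germinal center cells, Kif1c is low in plasma cells, and the Kif24 points of germinal center cells lie above those of the other 3 subsets.

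Kif5b is the widely expressed heavy chain of conventional kinesin. It read 925, 457, 558 and 568 in plasma cells, 226, 373, 340.2 and 436 in memory cells, 258, 179 and 460.4 in germinal center cells and 529, 490.0 and 706 in naive cells. The 3 germinal center arrays were below all naive arrays, and plasma and naive cells overlapped. It fell by 1.03 ± 0.34 on the log2 scale in germinal center against naive cells (limma adjusted p = 0.0444). The call was lost in 14 of 24 alternatives, among them the median of all probe sets (log2 -0.51), the actin ratio as covariate (log2 -0.03) and leaving out plasma replicates 3 and 4, memory replicates 2 and 3, germinal center replicates 1 and 2 and naive replicates 1, 2 and 3 (log2 -1.14 to -0.72 and limma adjusted p = 0.0562 to 0.182 without one). Plasma cells were higher than germinal center cells by 1.13 ± 0.31 (limma adjusted p = 0.0165). This call was lost without plasma replicate 1 and germinal center replicates 1 and 2 (log2 0.81 to 1.08 and limma adjusted p = 0.0511 to 0.0896 without one). It also ended with the median of all probe sets (log2 0.75) and with the actin ratio as covariate (log2 0.47). The 5 other probe sets of Kif5b gave -1.75 to 0.08 in germinal center against naive cells. Kif5c, a heavy chain best known from neurons, was above background on the 4 plasma arrays alone, at 17.6, 20.9, 27.4 and 15.4, and was at most 11.7 on the others. Plasma cells were at least 1.61-fold higher than memory cells, at least 1.40-fold higher than germinal center cells and at least 1.53-fold higher than naive cells. These calls ended with a floor of 16 on the intensities and with the median of all probe sets (limma adjusted p = 7.06e-05, 8.95e-04 and 5.25e-05 without these changes).

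Kif1b, a carrier of mitochondria and synaptic vesicle precursors, was the 1 family member that rose in memory against naive cells. It read 70.6, 65.7, 98.7 and 58.1 in plasma cells, 122, 87.6, 176 and 148 in memory cells, 17.0, 13.6 and 25.4 in germinal center cells and 57.5, 12.0 and 43.8 in naive cells. Memory cells lay above all naive and germinal center arrays and overlapped plasma cells, and naive replicate 2 was far below the other naive arrays. The log2 fold change was 2.05 ± 0.43 in memory against naive cells and 2.84 ± 0.43 in memory against germinal center cells (limma adjusted p = 0.0121 and 2.39e-04), and 1.99 ± 0.43 in plasma against germinal center cells. The rise in plasma against naive cells, 1.21 ± 0.43 (limma adjusted p = 0.0484), passed. The call was lost in 16 of 24 alternatives, among them leaving out plasma replicates 1, 2, 3 and 4, memory replicates 1, 2, 3 and 4, germinal center replicates 1 and 2 and naive replicate 2 (log2 0.52 to 1.31 and limma adjusted p = 0.050 to 0.237 without one). Its 6 other probe sets gave log2 -0.20 to 0.61 in memory against naive cells, and the brightest of the 6 gave 0.08. The value of 0.61 came from the one above background on all memory and no naive array, 18.3 against 12.0 on average. The calls of memory against naive and plasma against germinal center cells ended with the median of all probe sets.

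Kif1c, a vesicle motor of the same subfamily, was lower in plasma cells. It read 25.4, 17.0, 27.3 and 30.2 in plasma cells, 121, 91.8, 64.6 and 62.0 in memory cells, 88.0, 156 and 116 in germinal center cells and 88.0, 50.8 and 86.6 in naive cells. All plasma arrays lay below every other array, and the other 3 subsets overlapped. Plasma cells were lower, with log2 fold changes of -1.74 ± 0.27 against memory cells, -2.26 ± 0.29 against germinal center cells and -1.58 ± 0.29 against naive cells (limma adjusted p = 1.18e-04, 3.24e-05 and 6.46e-04). Its 3 other probe sets were at or near background in all subsets, so this rests on 1 probe set. With the median of all probe sets all 3 calls ended, with plasma log2 fold changes of -0.17 against memory cells, -0.16 against germinal center cells and 0.0019 against naive cells. Kif13b is a motor known to bind the discs-large scaffold. It read 129, 149, 180.2 and 102 in plasma cells, 60.3, 75.2, 111 and 78.0 in memory cells, 85.6, 41.8 and 75.1 in germinal center cells and 92.4, 54.5 and 90.3 in naive cells. Plasma cells lay above the germinal center and naive arrays and overlapped memory cells at 1 array, with log2 1.09 ± 0.29 against germinal center and 0.83 ± 0.29 against naive cells (limma adjusted p = 0.0117 and 0.0395). The first call ended without germinal center replicate 2 (log2 0.77 and limma adjusted p = 0.0648 without it), and also with the median of all probe sets (log2 0.28) and with the actin ratio as covariate (log2 0.74). The second ended without plasma replicates 1, 2 and 3, memory replicates 2 and 4 and naive replicates 2 and 3 (log2 0.59 to 0.95 and limma adjusted p = 0.0503 to 0.178 without one), and also with arrays centred on their median (log2 0.68) and with a floor of 16 on the intensities.

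Kif16b moves early endosomes. Its intensities were 179, 110.1, 146 and 96.6 in plasma cells, 150.4, 88.3, 123 and 114 in memory cells, 16.7, 60.2 and 115 in germinal center cells and 109, 126 and 176 in naive cells. Germinal center replicate 1 was far below the other germinal center arrays, and replicate 3 lay within the range of the other subsets. The probe set used for Kif16b is of the kind whose probes may match further transcripts. Its other probe sets gave log2 1.44 and 0.09 in plasma against germinal center cells. With the probe set used, the log2 difference of 1.41 ± 0.47 in plasma against germinal center cells (limma adjusted p = 0.0429) passed. The call was lost in 14 of 24 alternatives, among them leaving out plasma replicates 1, 2 and 3, memory replicates 2, 3 and 4, germinal center replicates 1 and 2 and naive replicates 1, 2 and 3 (log2 0.64 to 1.56 and limma adjusted p = 0.0504 to 0.185 without one).

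Kif3a, Kif3b and Kif3c are the motor subunits of the heterotrimeric kinesin that serves cilia and vesicle transport, in which Kif3a pairs with either of the others and Kifap3 is the adaptor. Kif3a read 57.4, 41.3, 54.0 and 58.8 in plasma cells, 17.7, 35.7, 26.6 and 19.8 in memory cells, 83.3, 49.5 and 55.6 in germinal center cells and 41.7, 24.8 and 77.6 in naive cells. Memory cells lay below every plasma and germinal center array and overlapped naive cells, with log2 -1.35 ± 0.33 in memory against germinal center cells and 1.12 ± 0.31 in plasma against memory cells (limma adjusted p = 0.00884 and 0.0111). Kif3c was 109.8, 104, 67.7 and 78.8 in plasma cells and 156, 140.4, 134 and 125 in memory cells, without overlap, and fell by 0.65 ± 0.18 on the log2 scale in plasma against memory cells (limma adjusted p = 0.0104). These Kif3a and Kif3c calls ended with the median of all probe sets, and that of Kif3a in memory against germinal center cells also with the actin ratio as covariate. Kif3b lay between 46.3 and 99.1 on all arrays. Its difference in memory against germinal center cells, log2 -0.55 ± 0.19 (limma adjusted p = 0.0480), passed. The call was lost in 17 of 24 alternatives, among them leaving out plasma replicates 1, 2, 3 and 4, memory replicates 2, 3 and 4, germinal center replicates 1 and 2 and naive replicate 3 (log2 -0.55 to -0.40 and limma adjusted p = 0.0524 to 0.198 without one). In 1 further alternative, the median of all probe sets, its sign turned (log2 0.068). The adaptor Kifap3 rose by 2.24 ± 0.23 on the log2 scale in germinal center against naive cells, with a mean of 89.2 in germinal center cells, against 18.8 in naive cells.

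Kif21b, between the classes, is a motor that slows microtubule growth. It read 50.5, 80.8, 89.1 and 64.4 in plasma cells, 144, 212, 313 and 209 in memory cells, 48.3, 86.1 and 97.8 in germinal center cells and 202, 103 and 158 in naive cells. Memory cells were above all plasma and germinal center arrays and overlapped naive cells, and plasma and germinal center cells overlapped. Log2 fold changes were -1.60 ± 0.29 in plasma against memory cells, 1.51 ± 0.31 in memory against germinal center cells and -1.10 ± 0.31 in plasma against naive cells (limma adjusted p = 5.01e-04, 0.00257 and 0.0150). The second call was lost with the actin ratio as covariate and the last one without naive replicates 1 and 3 (log2 -1.05 to -0.87 and limma adjusted p = 0.0518 to 0.0861 without one). The difference in germinal center against naive cells (log2 -1.005, SE 0.33, limma adjusted p = 0.0488) passed. The call was lost in 14 of 24 alternatives, among them leaving out plasma replicates 2, 3 and 4, memory replicates 2 and 4, germinal center replicates 1 and 2 and naive replicates 1 and 3 (log2 -1.11 to -0.70 and limma adjusted p = 0.0538 to 0.190 without one). Kif2a is a relative of Kif2c that takes microtubules apart at spindle poles and in neurites. It read 134, 185, 193 and 114 in plasma cells, 88.6, 129.8, 174 and 167 in memory cells, 553, 213 and 561 in germinal center cells and 291, 259.8 and 222 in naive cells. Every germinal center array was above every plasma and memory array. The log2 fold change was -1.40 ± 0.33 in plasma and -1.58 ± 0.33 in memory against germinal center cells (limma adjusted p = 0.00547 and 0.00271). These calls ended with the median of all probe sets. Against naive cells it passed in none of the contrasts, with log2 0.66 ± 0.35 in germinal center cells (95% interval -0.09 to 1.41) and -0.74 ± 0.33 in plasma cells (-1.45 to -0.04).

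Kif24, a centriole motor that restrains cilium formation, was the 1 gene of the remaining 9 above background on every array. It read 35.7, 48.5, 36.4 and 34.3 in plasma cells, 35.6, 29.1, 35.5 and 29.8 in memory cells, 123, 75.0 and 120.3 in germinal center cells and 25.5, 32.6 and 29.2 in naive cells. The germinal center arrays were above all others, and memory cells overlapped both plasma and naive cells. Its log2 fold change was 1.84 ± 0.20 in germinal center against naive cells and -1.43 ± 0.19 in plasma against germinal center cells (limma adjusted p = 1.06e-05 and 3.81e-05). Plasma against naive cells did not pass (0.40, 95% interval 0.01 to 0.80). A second Kif24 probe set gave log2 1.03 in germinal center against naive cells and was above background on the germinal center arrays alone. The third, below background on every array, gave 0.01. The start window of Kif24, printed with those of the mitotic genes, holds the variant element TTCGAA.

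The other 16 kinesins (Kif1a, Kif2b, Kif5a, Kif6, Kif7, Kif9, Kif12, Kif13a, Kif17, Kif21a, Kif26a, Kif26b, Kif27, Kif28, Kifc2 and Kifc3) lay between 5.45 and 23.3 on all arrays, none of them above background on all 14. Of these, 4 passed in some contrast (Kif6, Kif26b, Kifc2 and Kifc3), with log2 differences of at most 0.72 in size. Kifc3 read 15.6, 12.7, 12.7 and 12.7 in plasma cells and between 7.79 and 9.47 on the other arrays, without overlap. Kifc3 and Kif6 were above background on 2 plasma arrays each and on no other array.

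Other microtubule genes passed in both directions. Their counts stand beside 8.37% higher and 11.1% lower among all genes in germinal center against naive cells (19.5% in either direction), and 14.2% higher and 16.1% lower in plasma against naive cells (30.3% in either direction). Of 17 cargo adaptors of transport kinesins, 2 were higher and 4 lower in germinal center against naive cells, and 2 higher and 3 lower in plasma against naive cells. Klc4, a kinesin light chain, fell by 1.51 ± 0.19 in germinal center cells and fell by 1.85 ± 0.18 in plasma cells on the log2 scale, and Trak1, which ties mitochondria to kinesin, fell by 2.10 ± 0.33 in plasma cells. Of 25 dynein and dynactin genes, the motor of the opposite direction, 4 were higher and 2 lower in each of these contrasts. They were led by the kinetochore adaptor Spdl1 in germinal center cells (log2 2.80 ± 0.40) and by the adaptor Hook1 in plasma cells (log2 1.87 ± 0.35). Of 12 alpha and beta tubulins, the track itself, 0 were higher and 3 lower in germinal center cells, and 5 higher and 2 lower in plasma cells. Tubb2b had log2 fold changes of -3.57 ± 0.45 in germinal center and 1.92 ± 0.42 in plasma against naive cells, so it was called in both directions. In germinal center cells it averaged 11.2 and was above background on 1 of 3 arrays, so background limits the size of that fall. Tubb2a had log2 fold changes of -1.87 ± 0.42 in germinal center and 2.48 ± 0.40 in plasma against naive cells, and Tubb6 reached 2.63 ± 0.26 in plasma cells.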

How the data were processed

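RNA of sorted splenic B cells was measured on 14 arrays in 4 subsets, grouped by the sample titles. The deposited values are linear intensities that the authors made with RMA, per the submitters' processing notes; its version, software and chip definition are not given in the sources used here. RMA corrects background, equalises the arrays' distributions and summarises probes, which can compress differences of dim genes. The table holds 45101 probe sets, of which 64 controls were left out of the fit, 34945 carry 1 gene symbol, 932 several and 9160 none. The brightest probe set by mean log2 intensity stood for each of 18193 genes, and all 40 members matched RefSeq symbols.

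Log2 intensities with no pseudocount entered limma 3.58.1 under R 4.3.3 (lmFit and eBayes, all 14 arrays, 1 mean per subset, 10 residual degrees of freedom). Tests were two-sided with Benjamini-Hochberg adjustment over all genes within each contrast, called at an adjusted p under 0.05, and the fit was tested on simulated data. Background was the brightest of 27 unspiked bacterial controls on each array. Where a subset was below it on all arrays, its level was set per array to the higher of background and the gene's own value, which gives "at least" folds. Tables and figures were made with Python 3.11.15, pandas 2.3.3 and matplotlib 3.10.9.

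The members, class lists, partner lists and markers were chosen with earlier results of these data known. All mitotic members were described, other members if called with a log2 difference of 1 or more in size or if above background on all 14 arrays, and up to 4 called genes per partner list. Alternatives were quantile normalization, centring arrays on the median or on bright genes (mean log2 of at least 6), a floor of 16, genes above background on at least 3 arrays, the median of all probe sets, an eBayes trend, the actin ratio as covariate, a replicate block, only the 2 subsets compared, a class reassignment, an adjusted p under 0.01, and leaving out each array. Replicate numbers do not pair the samples: deviations of same-numbered arrays correlated at -0.22 to 0.25.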

Additional observations from a re-analysis of the deposited data

Results flagged for a closer look

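Among the 44 groups of 4 arrays tested for a value standing apart (Dixon's test at the 95% level), 2 had one, and chance flags about 1 in 20 groups. Kif23 read 59.0 on memory replicate 4, while the other 3 memory arrays lay between 47.4 and 48.5. Kif24 read 48.5 on plasma replicate 2, while the other 3 plasma arrays lay between 34.3 and 36.4.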

How the results depend on the processing

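The counts of mitotic kinesins called moved by less than 1.5 times under every alternative run: 8 to 11 in germinal center and 8 to 11 in plasma against naive cells, 0 in memory against naive cells, 4 to 6 in plasma and 8 to 10 in memory against germinal center cells, and 8 to 10 in plasma against memory cells. The transport counts moved more. In germinal center against naive cells 1 was called, against 2 with arrays centred on their median, genes above background on at least 3 arrays, an eBayes trend or the class reassignment, and 0 with a floor of 16, the actin ratio as covariate, the replicate block, only the 2 subsets compared or an adjusted p under 0.01. In plasma against naive cells 5 were called, against 3 (median centring, median of all probe sets, adjusted p under 0.01), 8 (bright-gene centring) and 1 (floor of 16). In memory against naive cells 1 was called and 0 with the median of all probe sets or an adjusted p under 0.01. In plasma against germinal center cells 7 were called, against 4 (floor, actin ratio, adjusted p under 0.01) and 2 (median of all probe sets). In memory against germinal center cells 3 were called, and 1 with the median of all probe sets or the actin ratio. In plasma against memory cells 8 were called, against 5 (median centring), 3 (floor, adjusted p under 0.01) and 1 (median of all probe sets). Leaving out 1 array gave 0 to 2, 3 to 5, 1, 4 to 7, 2 to 4 and 5 to 9 transport calls in the order above. With the replicate block 9, 10, 0, 5, 9 and 10 mitotic and 0, 5, 1, 7, 2 and 9 transport kinesins were called, although the numbers do not pair the samples. With the median of all probe sets Kif1c in plasma against naive cells turned to 0.0019, Kif23 to -0.029 in plasma against naive and -0.10 in plasma against memory cells, and Kif3b to 0.068 in memory against germinal center cells. Of 73 called values of single genes, 39 held under all 24 alternatives, and 16 of the 34 lost ones were lost only with the median of all probe sets. That alternative leaves the intensities of Kif4, Kif18b, Kif20a and Kifc1 unchanged, because each has 1 probe set. Bright-gene centring moved the all-gene median by 0.18 (germinal center against naive), 0.24 (plasma against naive) and 0.18 (memory against naive), and median centring by -0.14, -0.16 and -0.06. The share of higher among called genes was 43.0% in germinal center against naive cells, against 57.6% (bright-gene) and 30.2% (median centring), 46.8% in plasma against naive cells, against 67.4% and 34.1%, and 41.5% in memory against naive cells, against 68.2% (bright-gene) and 55.2% (quantile). The causes of these changes were not tested.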
